A study of Mus musculus with 12 samples.

Results

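The regulators of insulin and mTOR signalling described here are Irs1, Irs2, Pik3r1, Deptor, Sesn1, Sesn3, Eif4ebp1, Eif4ebp2 and Lpin1, taken by symbol from the counts of every library. They are 9 of 26264 genes. All 9 passed the low-count filter and were tested, Sesn3 only because of libraries from injected muscle. The libraries came from the tibialis anterior, the fast muscle at the front of the shin, of mice in a series about recovery of injured and disused muscle after injection of a gel of extracellular matrix. The gel group holds 4 libraries from left muscles given 50 µl of gel at 6 mg/ml, the PBS group 4 libraries from right muscles given 50 µl of phosphate-buffered saline, the vehicle, and the uninjured group 4 libraries from uninjured muscles. Side and treatment therefore cannot be told apart between gel and PBS. The deposited names give a gel and a PBS library of the same number the same animal, and give the uninjured libraries other animals. Against uninjured muscle, both injected groups therefore differ in animals, injection and any injury, and these cannot be told apart. The sources used here give neither strain, age and sex of the mice nor the kind of injury and the time of collection.

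Insulin and insulin-like growth factors act through receptors whose substrates, Irs1 and Irs2, recruit phosphoinositide 3-kinase, which leads to activation of Akt. Akt releases the kinase mTOR from its inhibition by the TSC complex, while amino acid sensors of the sestrin family and the inhibitor Deptor restrain it. Active mTOR phosphorylates the 4E-BP proteins, which otherwise hold the cap-binding factor eIF4E and block translation, and the lipins, enzymes and coregulators of lipid metabolism. In skeletal muscle this pathway links feeding, loading and disuse to protein synthesis and breakdown.

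Totals per library were 15626086 to 22182483 counts for gel, 16714543 to 20488409 for PBS and 15970781 to 18787964 for uninjured muscle. Gel library 3 stood apart: on the first principal component it lay at 5.39, the other gel libraries between -91.4 and -67.4 and the 8 PBS and uninjured libraries between 17.2 and 46.5. All 10 skeletal muscle fibre markers were detected, with a summed level of 255066 to 284285 CPM in uninjured, 226980 to 258060 CPM in PBS and 152805 to 232542 CPM in gel libraries. Between gel and PBS 3 of them fell (Ckm, Myh4 and Myh1) and 1 rose (Mylpf), 40.0% against 29.8% of all genes tested. CPM are counts divided by an effective library size and put on a common scale. This size is the library total times the TMM factor that edgeR estimates for each library. The factors were 0.967 to 1.24 in gel, 0.927 to 0.997 in PBS and 0.899 to 0.944 in uninjured libraries. Compared with shares of the plain total, they lower the CPM of gel libraries 1, 2 and 4 and raise those of the other libraries. All 12 macrophage and monocyte markers rose in gel against PBS, and their sum was 40.3 to 81.4 CPM in uninjured, 29.2 to 60.8 CPM in PBS, 1012, 1581 and 1832 CPM in gel libraries 1, 2 and 4, and 100.4 CPM in gel library 3. The 8 fibroblast markers summed to 715 to 1051 CPM in uninjured, 555 to 1343 CPM in PBS and 662 CPM (gel library 3) to 4033 CPM in gel libraries. Between gel and PBS 5 of them rose (Col1a1, Col1a2, Col3a1, Dpt and Ly6a), 62.5% against 29.8% of all genes tested, while Pdgfra, Dcn and Lum did not pass. Ly6a fell in both injected groups against uninjured muscle. The 6 satellite cell and myoblast markers summed to 29.2 to 62.8 CPM in uninjured, 37.2 to 81.4 CPM in PBS and 76.7 to 134 CPM in gel libraries, and 2 of them (Myog and Mymk) rose between gel and PBS. The 5 tendon markers summed to 182 to 238 CPM in uninjured, 75.2 to 125 CPM in PBS and 96.5 to 135 CPM in gel libraries, and 3 of the 4 tested fell between PBS and uninjured. The 6 adipocyte markers summed to 157 to 174, 94.1 to 130.0 and 88.6 to 195 CPM in uninjured, PBS and gel libraries. Nearly all of this was Fabp4, with means of 164, 115 and 132 CPM in these groups. The other adipocyte markers averaged at most 0.733 CPM in any group. Neither of the adipocyte markers tested, Adipoq and Fabp4, passed in edgeR in any comparison. The part of these cell type markers in the regulators' differences was not tested.

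Gel-treated muscle had lower levels of 3 of the 9 regulators than PBS-treated muscle. Eif4ebp2, Lpin1 and Irs2 fell, and in each the 4 gel libraries lay below all 4 PBS libraries. Against uninjured muscle, gel-treated muscle had lower Lpin1, Eif4ebp1, Irs2 and Pik3r1 and higher Sesn3 and Irs1. PBS-treated muscle differed from uninjured muscle past the threshold in 1 regulator, Eif4ebp1, which fell. These levels are relative to the other RNA of a library. In bulk muscle, fewer cells of a type, less RNA per cell and more RNA from other cells cannot be told apart. The 3 comparisons share libraries and are not independent of each other.

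The threshold was an adjusted p of 0.05 in edgeR's quasi-likelihood test over the 13499 genes tested. Between PBS and uninjured, 1 of 9 regulators (11.1%) passed, against 6.17% of all genes tested (2.79% higher, 3.39% lower). Between gel and PBS, 3 of 9 (33.3%) passed, against 29.8% of all genes (16.6% higher, 13.2% lower), a share close to the background. Between gel and uninjured, 6 of 9 (66.7%) passed, 2 higher and 4 lower, against 25.6% of all genes (14.5% higher, 11.1% lower). None rose between PBS and uninjured or between gel and PBS: edgeR and limma voom each called 0 in both, while DESeq2 called 3 and 0, and 4 and 0 were higher at an unadjusted edgeR p under 0.05. The libraries of the groups did not overlap for 3 of 9 regulators between PBS and uninjured, 2 higher and 1 lower, against 20.6% of all genes (10.4% higher, 10.2% lower). They did not overlap for 3 between gel and PBS, all lower, against 20.1% (10.4% higher, 9.74% lower), and for 5 between gel and uninjured, 1 higher and 4 lower, against 23.0% (11.3% higher, 11.7% lower). Sesn3 is the 1 higher there and is among the 2 that rose between gel and uninjured. It passed the low-count filter only through injected libraries. The median log2 fold change of the 9 was -0.10, -0.22 and -0.70 in these comparisons, and that of all genes tested 0.00, 0.04 and 0.03.

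**Figure D1:**
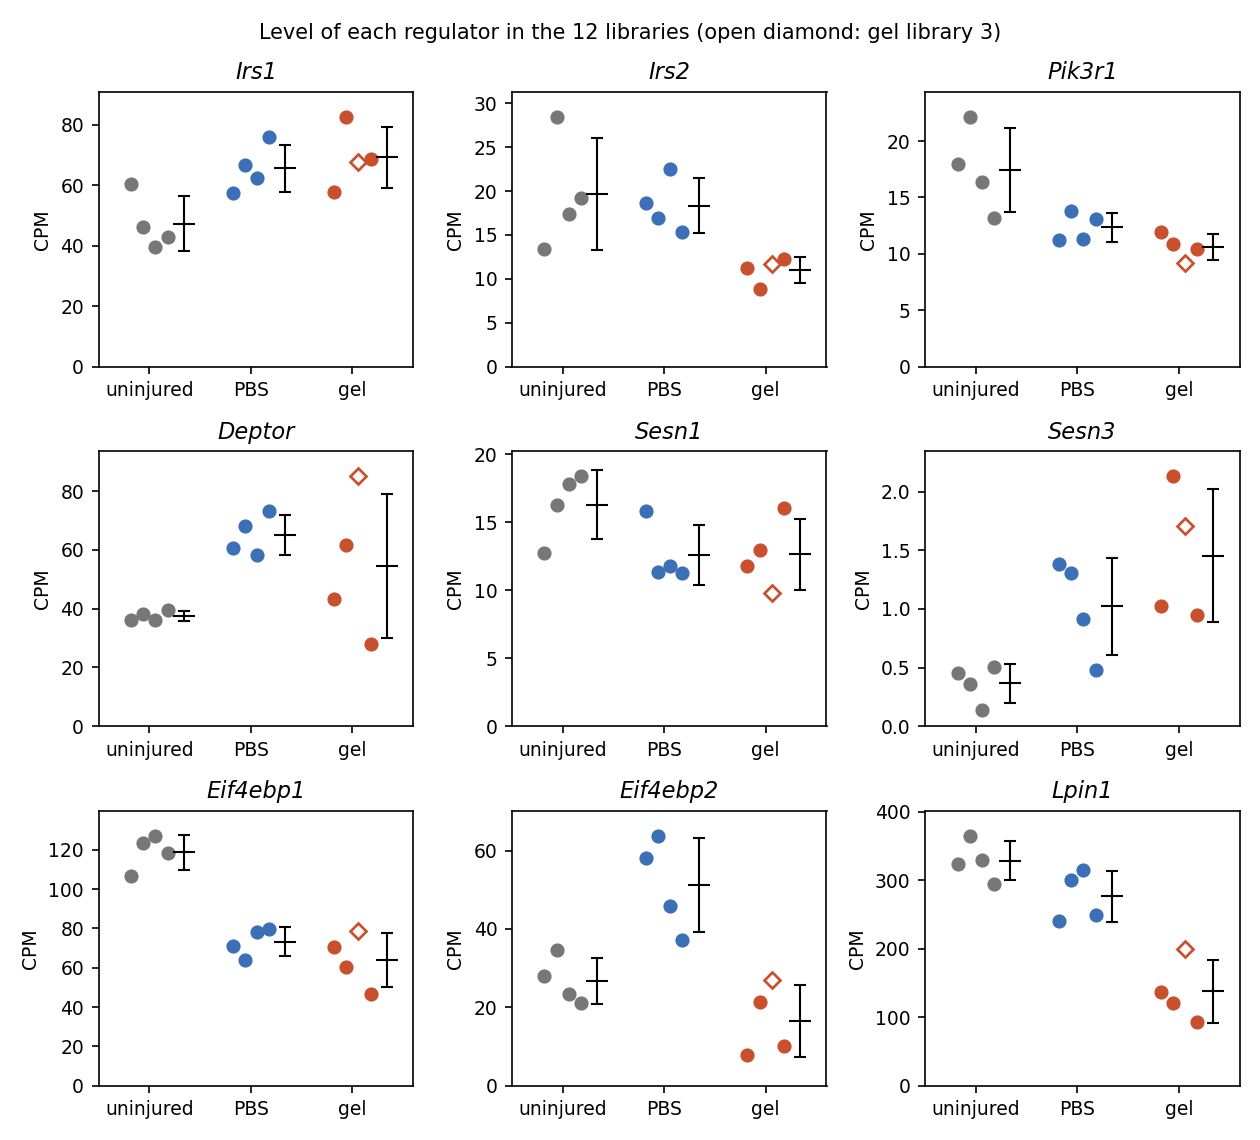
Level of each regulator in CPM (linear axes from 0) in the 4 uninjured, 4 PBS and 4 gel libraries, with the mean and SD of each group as a bar and gel library 3 as an open diamond. The gel libraries lie below every PBS library for Irs2, Eif4ebp2 and Lpin1, and the PBS and gel libraries lie below every uninjured library for Eif4ebp1.

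**Figure D2:**
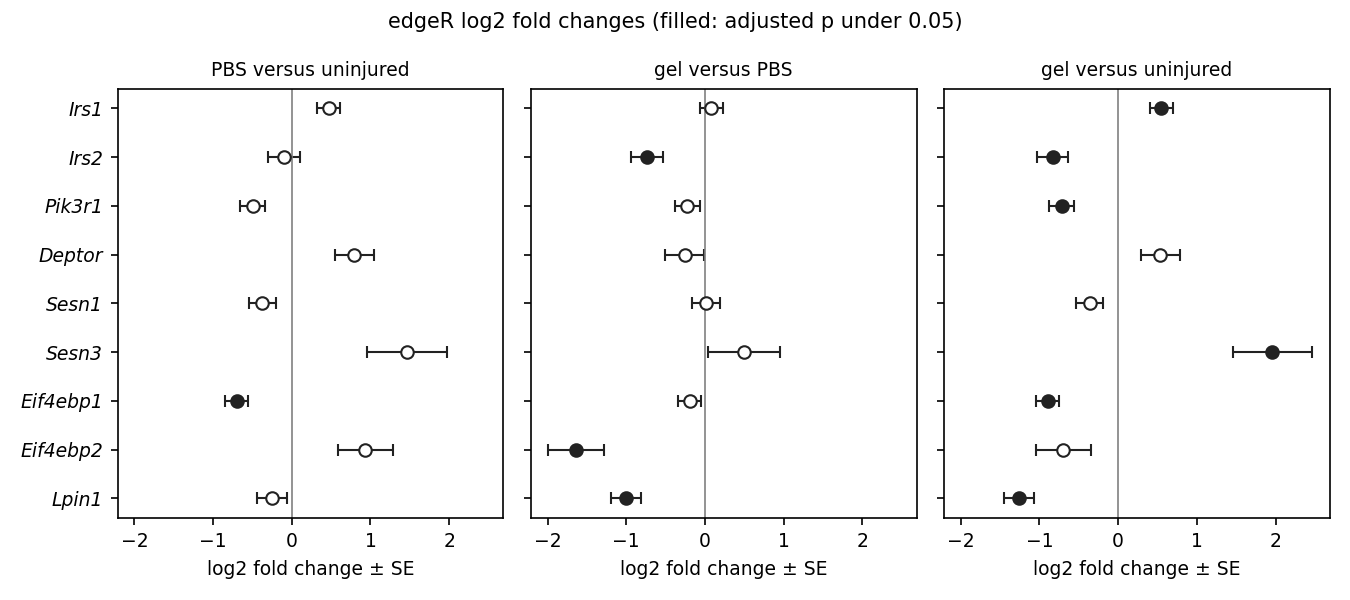
Log2 fold change and its SE from edgeR for the 9 regulators in the 3 comparisons, filled where the adjusted p is under 0.05. Filled points number 1 for PBS against uninjured, 3 for gel against PBS and 6 for gel against uninjured.

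CPM per kilobase of merged exons allow a rough comparison between genes. On this scale Eif4ebp1 and Lpin1 were the highest of the regulators in uninjured muscle and Sesn3 by far the lowest. Eif4ebp1 stood at 59.5 ± 4.45 (SD, n = 4) and Lpin1 at 53.0 ± 4.60 CPM per kilobase, with spreads between libraries that overlap. These genes were not compared library by library. Irs1 (5.18 ± 0.997), Eif4ebp2 (4.63 ± 1.03), Deptor (4.22 ± 0.187) and Sesn1 (4.11 ± 0.637) followed, with neighbours again within their spread. Irs2 was at 3.11 ± 1.00, Pik3r1 at 2.30 ± 0.493 and Sesn3 at 0.0383 ± 0.0173 CPM per kilobase. In gel-treated muscle Eif4ebp1 (32.1 ± 6.89) and Lpin1 (22.2 ± 7.35) were still the highest, Irs1 (7.57 ± 1.11) and Deptor (6.14 ± 2.77) came next, and Eif4ebp2 (2.86 ± 1.57) stood below Sesn1 (3.19 ± 0.659), within their spread. These lengths join the exons of all annotated transcripts of a gene, whichever of them the muscle makes. They are also from an annotation of another build than the counts, so these values and their order are approximate.

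The insulin receptor substrates Irs1 and Irs2 are docking proteins that carry the signal from the insulin and insulin-like growth factor receptors to phosphoinositide 3-kinase. Between gel and uninjured, Irs2 fell and Irs1 rose. Irs2 was at 13.4, 28.4, 17.4 and 19.3 CPM in uninjured libraries 1 to 4, at 18.6, 16.9, 22.6 and 15.3 CPM in PBS, and at 11.3, 8.85, 11.7 and 12.2 CPM in gel. All 4 gel libraries lay below all PBS and all uninjured libraries, and the PBS and uninjured libraries overlapped. Irs2 fell between gel and PBS with a log2 fold change of -0.74 ± 0.20 (SE, adjusted p = 0.0137) and between gel and uninjured with -0.83 ± 0.20 (adjusted p = 0.00762). For PBS against uninjured the log2 fold change of Irs2 was -0.10 ± 0.20 (adjusted p = 0.825).

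Irs1 was at 60.4, 46.1, 39.8 and 43.0 CPM in uninjured libraries 1 to 4, at 57.4, 66.6, 62.5 and 75.9 CPM in PBS, and at 57.9, 82.6, 67.8 and 68.6 CPM in gel. Uninjured library 1 overlapped both injected groups, and the other 3 uninjured libraries lay below all of them. Irs1 rose between gel and uninjured, with a log2 fold change of 0.55 ± 0.15 (adjusted p = 0.0136). That call was lost without gel library 2 (adjusted p = 0.0666) and without uninjured library 3 (adjusted p = 0.0570). Between PBS and uninjured the log2 fold change of Irs1 was 0.47 ± 0.15 (adjusted p = 0.0719), which passed when gel library 3 (0.0354) or uninjured library 1 (0.0288) was left out, with DESeq2 (0.0339) and with the 2 groups alone (0.0123). Between gel and PBS it was 0.08 ± 0.15 (adjusted p = 0.717).

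Within a library, the ratio of Irs1 to Irs2 CPM ran from 5.13 to 9.34 with gel, from 2.77 to 4.96 with PBS and from 1.62 to 4.504 without injury. Each gel library, gel library 3 included (5.79), lay above each library of the other groups. The ratio was chosen after the values of both genes were seen and was not tested.

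The table of RefSeq promoters used here holds the bases before the start of transcription for 7 of the 9 regulators. Eif4ebp1 and Deptor were not searched. Irs1 and Irs2 are shown because these genes, called in opposite directions between gel and uninjured, share 2 short motifs upstream. The sequences are the 250 bases before the start, read 5′ to 3′ on the gene's own strand in build GRCm38.p6, with motif matches in capitals. Irs1 lies on the minus strand at chr1:82291440-82291689 and Irs2 on the minus strand at chr8:11008930-11009179.
Irs1: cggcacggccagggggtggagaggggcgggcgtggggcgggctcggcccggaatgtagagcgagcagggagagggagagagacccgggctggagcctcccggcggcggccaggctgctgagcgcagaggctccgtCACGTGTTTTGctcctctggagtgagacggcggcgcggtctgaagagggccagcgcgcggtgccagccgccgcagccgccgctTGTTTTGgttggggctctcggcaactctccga
Irs2: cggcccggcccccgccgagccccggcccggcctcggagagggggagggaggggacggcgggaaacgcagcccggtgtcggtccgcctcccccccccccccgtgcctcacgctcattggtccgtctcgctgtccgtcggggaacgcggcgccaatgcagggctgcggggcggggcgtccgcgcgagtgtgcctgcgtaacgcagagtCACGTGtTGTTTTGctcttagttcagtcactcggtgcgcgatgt
The capitals mark the E-box CACGTG and TGTTTTG, the reverse complement of the insulin response element CAAAACA. Irs1 holds an E-box that begins 115 bases before the start and insulin response elements at 111 and 32 bases, the former sharing letters with the E-box. Irs2 holds an E-box at 44 bases and an insulin response element at 37 bases. Searched on both strands of 32851 promoters of this length, CAAAACA occurred in 5.56% and CACGTG in 6.02%, and among the 7 regulators searched both occurred in Irs1 and Irs2 alone. The FOXO element GTAAACA (3.17% of promoters), the CRE TGACGTCA (1.55%) and the ATF4 element TGATGCAAT (0.167%) had 0 matches in the 7 regulators. A match of letters describes the sequence and shows no binding.

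Pik3r1 encodes p85 alpha and its shorter forms, the regulatory subunits that hold the catalytic subunit of phosphoinositide 3-kinase. Its level was 17.96, 22.1, 16.4 and 13.2 CPM in uninjured libraries 1 to 4, 11.3, 13.8, 11.3 and 13.1 CPM in PBS, and 11.96, 10.9, 9.16 and 10.4 CPM in gel. Every gel library lay below every uninjured library, while PBS libraries overlapped with both. Pik3r1 fell between gel and uninjured with a log2 fold change of -0.72 ± 0.16 (adjusted p = 0.00501). The log2 fold change was -0.49 ± 0.16 between PBS and uninjured (adjusted p = 0.0772; 0.0426 without gel library 3 and 0.0304 with the 2 groups alone) and -0.22 ± 0.16 between gel and PBS (adjusted p = 0.312).

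Deptor encodes an inhibitory partner of mTOR found in both of its complexes. It was at 36.0, 38.3, 36.2 and 39.5 CPM in uninjured libraries 1 to 4, at 60.7, 68.0, 58.3 and 73.3 CPM in PBS, and at 43.3, 61.8, 85.0 and 27.8 CPM in gel. The PBS libraries all lay above the uninjured ones, with a log2 fold change of 0.80 ± 0.25 that missed the threshold (adjusted p = 0.0770). Leaving out gel library 3 (adjusted p = 0.00995) or gel library 4 (0.0118), which enter this comparison through the shared estimate of spread, brought it past, as did DESeq2 (0.0175) and a fit of the 2 groups alone (2.07e-05). The gel libraries held both the lowest and the highest Deptor level of all 12, in gel libraries 4 and 3, and the SD of the gel group was 24.6 CPM against 6.87 in PBS and 1.66 in uninjured. Between gel and PBS the log2 fold change was -0.26 ± 0.25 (adjusted p = 0.457), and without gel library 3 it was -0.57 and passed (adjusted p = 0.0271). Between gel and uninjured it was 0.54 ± 0.25 (adjusted p = 0.130), and without gel library 4 it was 0.74 and passed (adjusted p = 0.0128).

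The sestrins are stress-induced proteins that pass low amino acid levels to the mTOR pathway. Sesn1 was at 12.7, 16.3, 17.8 and 18.4 CPM in uninjured libraries 1 to 4, at 15.8, 11.3, 11.8 and 11.3 CPM in PBS, and at 11.8, 12.96, 9.77 and 16.0 CPM in gel. The 3 groups overlapped, and PBS library 1 lay apart from the other PBS libraries. The log2 fold change of Sesn1 was -0.37 ± 0.18 between PBS and uninjured (adjusted p = 0.223), 0.01 ± 0.18 between gel and PBS (adjusted p = 0.968) and -0.36 ± 0.17 between gel and uninjured (adjusted p = 0.141).

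Sesn3 was the least abundant regulator, with 8, 6, 2 and 8 reads in uninjured libraries 1 to 4, 28, 24, 16 and 8 reads in PBS, and 18, 45, 28 and 26 reads in gel. As levels these were 0.135 to 0.506 CPM in uninjured, 0.480 to 1.38 CPM in PBS and 0.947 to 2.13 CPM in gel. Every gel library lay above every uninjured library, and PBS library 4 lay within the uninjured range. Sesn3 rose between gel and uninjured with a log2 fold change of 1.96 ± 0.51 (adjusted p = 0.0107). It was 1.47 ± 0.51 between PBS and uninjured (adjusted p = 0.100) and 0.49 ± 0.46 between gel and PBS (adjusted p = 0.437). No uninjured library had more than 8 reads, so Sesn3 passed the low-count filter only through PBS and gel libraries, where it was higher. Reads this few leave wide errors.

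Eif4ebp1 and Eif4ebp2 encode repressors that bind eIF4E until mTOR phosphorylates them. Eif4ebp1 fell in both injected groups against uninjured muscle, and Eif4ebp2 fell between gel and PBS. Eif4ebp1 was at 107, 123, 127 and 118 CPM in uninjured libraries 1 to 4, at 71.2, 63.8, 78.1 and 79.7 CPM in PBS, and at 70.7, 60.3, 78.5 and 46.7 CPM in gel. Both injected groups lay below all uninjured libraries and overlapped with each other. Eif4ebp1 fell by 0.70 ± 0.15 on the log2 scale between PBS and uninjured (adjusted p = 0.0103) and by 0.89 ± 0.15 between gel and uninjured (adjusted p = 0.000788). Between gel and PBS the log2 fold change was -0.19 ± 0.15 (adjusted p = 0.331).

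Eif4ebp2 was at 28.1, 34.5, 23.5 and 21.0 CPM in uninjured libraries 1 to 4, at 58.0, 63.7, 45.9 and 37.3 CPM in PBS, and at 7.86, 21.4, 26.9 and 10.01 CPM in gel. Every PBS library lay above every uninjured and every gel library, and gel libraries 2 and 3 lay within the uninjured range. Eif4ebp2 fell between gel and PBS with a log2 fold change of -1.64 ± 0.35 (adjusted p = 0.00627). Between PBS and uninjured the log2 fold change was 0.94 ± 0.35, which missed the threshold (adjusted p = 0.135) with all 12 libraries in 1 fit and passed with the 2 groups alone (0.00547) and with DESeq2 (0.0317). Between gel and uninjured it was -0.70 ± 0.35 (adjusted p = 0.165), and without gel library 3 it was -1.04 and passed (adjusted p = 0.0339).

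The ratio of Eif4ebp2 to Eif4ebp1 CPM within a library was 0.178 to 0.280 in uninjured, 0.468 to 0.998 in PBS and 0.111 to 0.356 in gel libraries. The PBS group lay above the others without overlap, and the gel and uninjured ranges overlapped. Eif4ebp3, the third gene of this family, fell between PBS and uninjured (log2 fold change -0.58 ± 0.12, adjusted p = 0.0117) and rose between gel and PBS (0.53 ± 0.12, adjusted p = 0.00590). Its level was 14.5 to 16.1 CPM in uninjured, 9.35 to 11.6 CPM in PBS and 13.4 to 15.6 CPM in gel, so that gel overlapped uninjured (-0.05 ± 0.12, adjusted p = 0.806). The ratio of Eif4ebp1 to Eif4ebp3 CPM was 7.27 to 8.74, 6.72 to 8.20 and 3.33 to 5.87 in the uninjured, PBS and gel groups. These ratios too were chosen after the values were seen and were not tested.

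**Figure D3:**
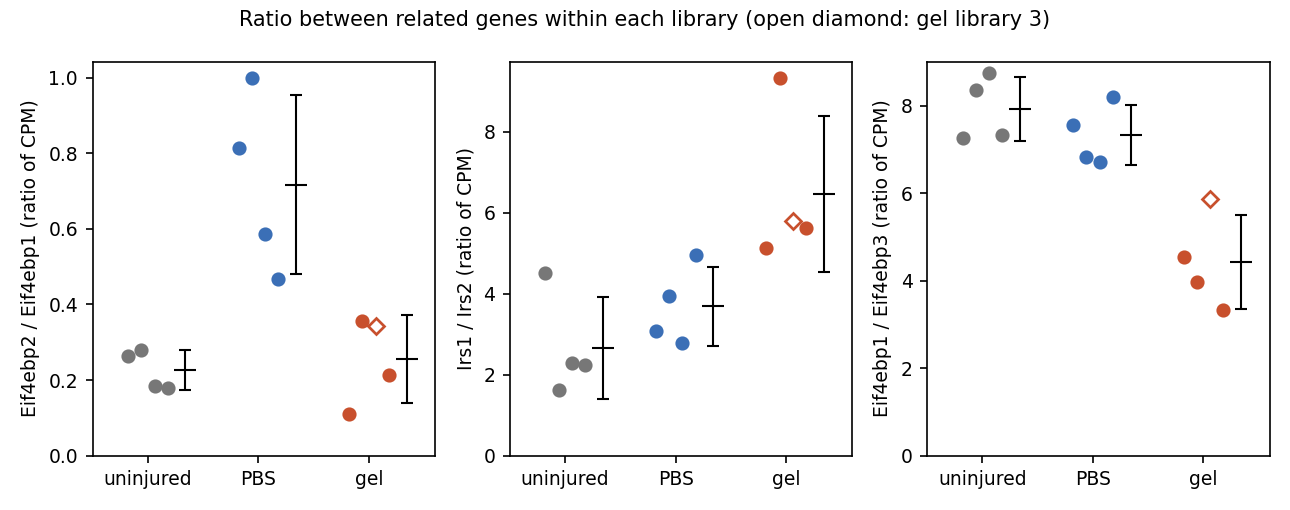
Ratio of CPM between related genes within each library, with the mean and SD of the 4 libraries of a group as a bar, linear axes from 0 and gel library 3 as an open diamond. Eif4ebp2 to Eif4ebp1 is highest in PBS (0.468 to 0.998), Irs1 to Irs2 is highest in gel (5.13 to 9.34), and Eif4ebp1 to Eif4ebp3 is lowest in gel (3.33 to 5.87).

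Lpin1 encodes lipin 1, a phosphatidate phosphatase of triglyceride synthesis that also acts in the nucleus as a coregulator of oxidative genes. Its level was 324, 365, 329.6 and 295 CPM in uninjured libraries 1 to 4, 241, 300.0, 315 and 249 CPM in PBS, and 136, 121, 200.1 and 92.4 CPM in gel. All gel libraries lay below all others, with gel library 3 the highest of the 4, while PBS and uninjured libraries overlapped. Lpin1 fell between gel and PBS with a log2 fold change of -1.01 ± 0.19 (adjusted p = 0.00261) and between gel and uninjured with -1.26 ± 0.19 (adjusted p = 0.000478). For PBS against uninjured it was -0.25 ± 0.19 (adjusted p = 0.471).

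The related gene Lpin2 was low in every group (0.612 ± 0.219, 0.560 ± 0.421 and 0.918 ± 0.225 CPM per kilobase in uninjured, PBS and gel), against 53.0, 44.6 and 22.2 for Lpin1. Lpin2 passed in none of the 3 comparisons with edgeR on all 12 libraries, with log2 fold changes of -0.13 ± 0.42, 0.72 ± 0.41 and 0.59 ± 0.41. PBS library 4 (7.44 CPM) lay apart from PBS libraries 1 to 3 (1.97 to 2.56 CPM), and gel against PBS passed in 1 of 18 alternatives. Lpin3 fell between PBS and uninjured (-0.84 ± 0.23, adjusted p = 0.0371, kept in 10 of 17 alternatives) and between gel and uninjured (-0.83 ± 0.22, adjusted p = 0.0143), and was at 0.01 ± 0.23 between gel and PBS (adjusted p = 0.974).

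For the 3 regulators that fell between gel and PBS, whose groups do not overlap, any pairing of libraries gives lower values in gel, so the pairs of the same number add only the sizes. The gel minus PBS differences in log2 CPM for pairs 1 to 4 were -2.87, -1.57, -0.77 and -1.89 for Eif4ebp2. For Lpin1 they were -0.82, -1.31, -0.65 and -1.43, and for Irs2 -0.72, -0.93, -0.94 and -0.32. Deptor had both directions, with -0.49, -0.14, 0.54 and -1.39. Sesn3 was higher in gel in pairs 2, 3 and 4 (0.66, 0.83 and 0.84) and lower in pair 1 (-0.39).

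**Figure D4:**
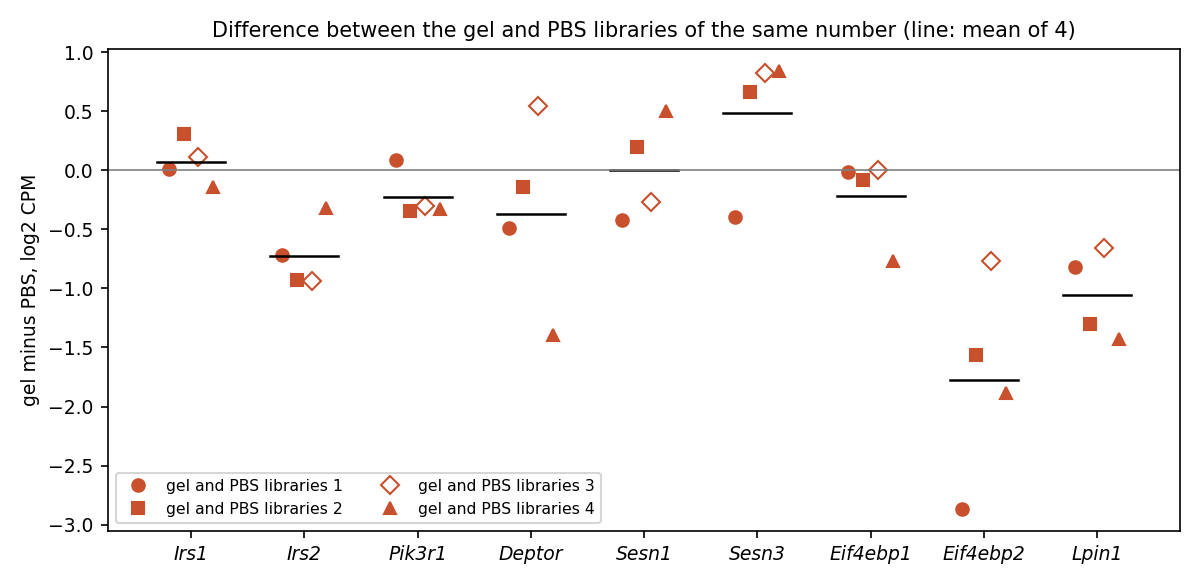
Gel minus PBS difference in log2 CPM for the gel and PBS libraries of the same number, 1 marker shape for each pair and an open diamond for pair 3, with the mean of the 4 as a line. Irs2, Eif4ebp2 and Lpin1 are below 0 in all 4 pairs, and the Deptor pairs run from -1.39 to 0.54.

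In gel library 3, Eif4ebp2 (26.9 CPM), Lpin1 (200.1 CPM) and Irs2 (11.7 CPM) lay below the lowest PBS library (37.3, 241 and 15.3 CPM). The fibre sum of that library (232542 CPM) lay within the PBS range, and its macrophage sum (100.4 CPM) and its satellite cell and myoblast sum (87.4 CPM) lay above every PBS library (at most 60.8 and 81.4 CPM). Of the 9 regulators, gel library 3 lay within the PBS range for 2 (Eif4ebp1 and Irs1) and within the range of the other gel libraries for 3 (Sesn3, Irs1 and Irs2). Without gel library 3 the gel against PBS log2 fold changes were -1.98 for Eif4ebp2 (adjusted p = 0.00107), -1.26 for Lpin1 (2.08e-06) and -0.78 for Irs2 (0.00889). Against uninjured they were -1.50 for Lpin1 (3.71e-07), -1.02 for Eif4ebp1 (1.32e-05), -0.87 for Irs2 (0.00477), -0.67 for Pik3r1 (0.00403), 1.86 for Sesn3 (0.0130) and 0.55 for Irs1 (0.00745), all past the threshold in edgeR.

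Genes with the most similar pattern were found by the root-mean-square difference of centred log2 CPM over the 12 libraries, among 9104 genes of at least 5 CPM on average. Irs1 was nearest to Slc6a6, the taurine transporter, at 0.0970, and Eif4ebp1 to Chd7, a chromatin remodeller, at 0.112, where the spread of the members themselves about their means was 0.309 and 0.433. Lpin1 was nearest to Zfp651 (0.125) and Pde4d (0.131), a cyclic AMP phosphodiesterase, against a spread of 0.622. Eif4ebp2 was nearest to the muscle membrane gene Tmem182 (0.265) and to Phospho1 (0.287), a phosphatase, against a spread of 0.870. Phospho1 had means of 14.8, 22.5 and 6.56 CPM and Tmem182 of 34.6, 67.1 and 27.5 CPM in uninjured, PBS and gel. Irs2 was nearest to Ifrd1 (0.209, against its own spread of 0.449), Pik3r1 to Pprc1 (0.130, against 0.344) and Sesn1 to Evi5 (0.152, against 0.283). Deptor was nearest to Bhlhe41, a repressor of the circadian clock (0.212, against 0.479). Sesn3 was nearest to Tnfaip2 (0.406, against 0.888).

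The other genes of the pathway were read from 6 lists of 141 genes, of which 139 were tested. For PBS against uninjured 7 rose and 12 fell (13.7%, against 6.17% of all genes), between gel and PBS 13 rose and 36 fell (35.3% against 29.8%), and between gel and uninjured 17 rose and 31 fell (34.5% against 25.6%). Their median log2 fold changes were 0.05, -0.17 and -0.12. Falls outnumbered rises in all 3 comparisons for the lists together, but not in every list. Over all genes tested, 376 rose and 457 fell between PBS and uninjured. The split was 2236 and 1786 between gel and PBS, and 1951 and 1498 between gel and uninjured. With limma voom, falls led over all genes in both gel comparisons.

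From the insulin receptor to Akt, 39 genes were tested, and 4 rose and 2 fell between PBS and uninjured (15.4%, against 6.17% of all genes). Between gel and PBS 4 rose and 8 fell (30.8% against 29.8%). Between gel and uninjured 10 rose and 4 fell (35.9% against 25.6%). Akt2, the Akt kinase of insulin-stimulated glucose uptake, was at 255, 262, 236 and 219 CPM in uninjured libraries 1 to 4, at 297, 308, 352 and 318 CPM in PBS and at 118, 143, 221 and 127 CPM in gel. It fell between gel and PBS (log2 fold change -1.07 ± 0.17, adjusted p = 0.00145), with all gel libraries below all PBS libraries. Akt1 did not pass in edgeR in any comparison (0.02 ± 0.13, 0.13 ± 0.13 and 0.15 ± 0.13). The receptor gene Insr fell between gel and uninjured (-0.50 ± 0.12, adjusted p = 0.00702), and the receptor gene Igf1r was at -0.06 ± 0.14 (adjusted p = 0.794). Of the adaptors, Grb10 (1.23 ± 0.24, adjusted p = 0.00344) and Sh2b2 (1.24 ± 0.24, adjusted p = 0.00286) rose and Gab1 (-0.74 ± 0.15, adjusted p = 0.00358) fell between gel and PBS.

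Of 15 tested genes of the mTOR complexes, TSC and Rheb, 1 rose between PBS and uninjured (6.67%, against 6.17% of all genes). Between gel and PBS 4 fell (26.7% against 29.8%), and between gel and uninjured 5 fell (33.3% against 25.6%). Rptor, which encodes the substrate-binding subunit raptor, was at 23.7 to 30.9 CPM in uninjured, 35.5 to 44.9 CPM in PBS and 23.1 to 30.0 CPM in gel. It rose between PBS and uninjured (0.52 ± 0.13, adjusted p = 0.0218), a call kept in 11 of 17 alternatives, and fell between gel and PBS (-0.70 ± 0.13, adjusted p = 0.00228). Tsc1, a subunit of the TSC complex, fell between gel and PBS (-0.64 ± 0.14, adjusted p = 0.00507) and between gel and uninjured (-0.61 ± 0.14, adjusted p = 0.00692). Rheb, the GTPase that activates mTOR, fell between gel and uninjured (-0.51 ± 0.13, adjusted p = 0.00947). Mtor itself fell between gel and uninjured (-0.37 ± 0.10, adjusted p = 0.0183), a call lost without gel library 2 (0.0559).

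Among 31 tested genes of amino acid sensing, 1 rose and 3 fell between PBS and uninjured (12.9%, against 6.17% of all genes). Between gel and PBS 7 rose and 7 fell (45.2% against 29.8%). Between gel and uninjured 2 rose and 3 fell (16.1% against 25.6%). Castor1, an arginine sensor, fell between PBS and uninjured (-1.20 ± 0.20, adjusted p = 0.00320), and Slc38a2, a neutral amino acid transporter, fell likewise (-1.38 ± 0.14, adjusted p = 5.14e-05). Castor2, the paralogue of Castor1, was the gene that rose (0.79 ± 0.16, adjusted p = 0.00991), from 20.8 ± 1.12 to 35.8 ± 8.56 CPM (SD, n = 4). Slc38a2 (0.58 ± 0.13, adjusted p = 0.00604) and the lysosomal arginine sensor Slc38a9 (0.77 ± 0.16, adjusted p = 0.00382) rose between gel and PBS, and the Rag GTPase gene Rragd fell (-1.11 ± 0.27, adjusted p = 0.00943). Sesn2, the third sestrin, did not pass in edgeR in any comparison (0.19 ± 0.29, -0.18 ± 0.28 and 0.01 ± 0.29).

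Of 19 tested genes of energy and stress inputs, 4 fell between PBS and uninjured (21.1%, against 6.17% of all genes). Between gel and PBS 6 fell (31.6% against 29.8%). Between gel and uninjured 2 rose and 9 fell (57.9% against 25.6%). Ddit4, a stress-induced inhibitor of mTOR that acts through TSC, was at 15.3, 40.9, 47.9 and 39.8 CPM in uninjured libraries 1 to 4, at 4.29, 4.41, 5.61 and 4.44 CPM in PBS and at 5.24, 4.54, 9.83 and 4.44 CPM in gel. It fell between PBS and uninjured (log2 fold change -2.94 ± 0.35, adjusted p = 0.000570) and between gel and uninjured (-2.59 ± 0.34, adjusted p = 0.000378), and all uninjured libraries lay above all others. Fkbp5, a target of the glucocorticoid receptor, fell with it (-2.89 ± 0.25, adjusted p = 3.99e-05, PBS against uninjured). Foxo1, a transcription factor that Akt holds out of the nucleus, fell between PBS and uninjured (-1.40 ± 0.22, adjusted p = 0.00240) and between gel and uninjured (-2.02 ± 0.22, adjusted p = 8.74e-05). Foxo4 (-1.20 ± 0.20, adjusted p = 0.00197) and Prkab2, a subunit of AMP-activated kinase (-1.28 ± 0.23, adjusted p = 0.00236), fell between gel and PBS.

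Of 24 tested genes of translation and other outputs, 2 fell between PBS and uninjured (8.33%, against 6.17% of all genes). Between gel and PBS 2 rose and 9 fell (45.8% against 29.8%). Between gel and uninjured 2 rose and 8 fell (41.7% against 25.6%). The scaffold of the cap-binding complex, Eif4g1 (-1.08 ± 0.19, adjusted p = 0.00203), the elongation factor Eef2 (-0.82 ± 0.14, adjusted p = 0.00189) and the autophagy kinase Ulk1 (-0.83 ± 0.13, adjusted p = 0.00127) fell between gel and PBS. Eif4e, the target of the 4E-BPs, did not pass in edgeR with all 12 libraries (0.39 ± 0.17 for PBS against uninjured, -0.28 ± 0.17 for gel against PBS). It passed in 2 of 17 and 1 of 18 alternatives of these comparisons. Every PBS library (129.6 to 144.2 CPM) lay above every uninjured library (94.8 to 111.0 CPM), and gel library 3 (158.7 CPM) above all others. The S6 kinase gene Rps6kb1 did not pass either (-0.12 ± 0.13 and -0.17 ± 0.13). Of 14 tested lipin and lipid genes, 1 rose and 1 fell between PBS and uninjured (14.3%, against 6.17% of all genes). Between gel and PBS 1 rose and 2 fell (21.4% against 29.8%). Between gel and uninjured 2 rose and 2 fell (28.6% against 25.6%). Srebf1, a regulator of lipid synthesis, rose between PBS and uninjured (0.98 ± 0.15, adjusted p = 0.00166) and fell between gel and PBS (-0.54 ± 0.15, adjusted p = 0.0141).

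**Figure D5:**
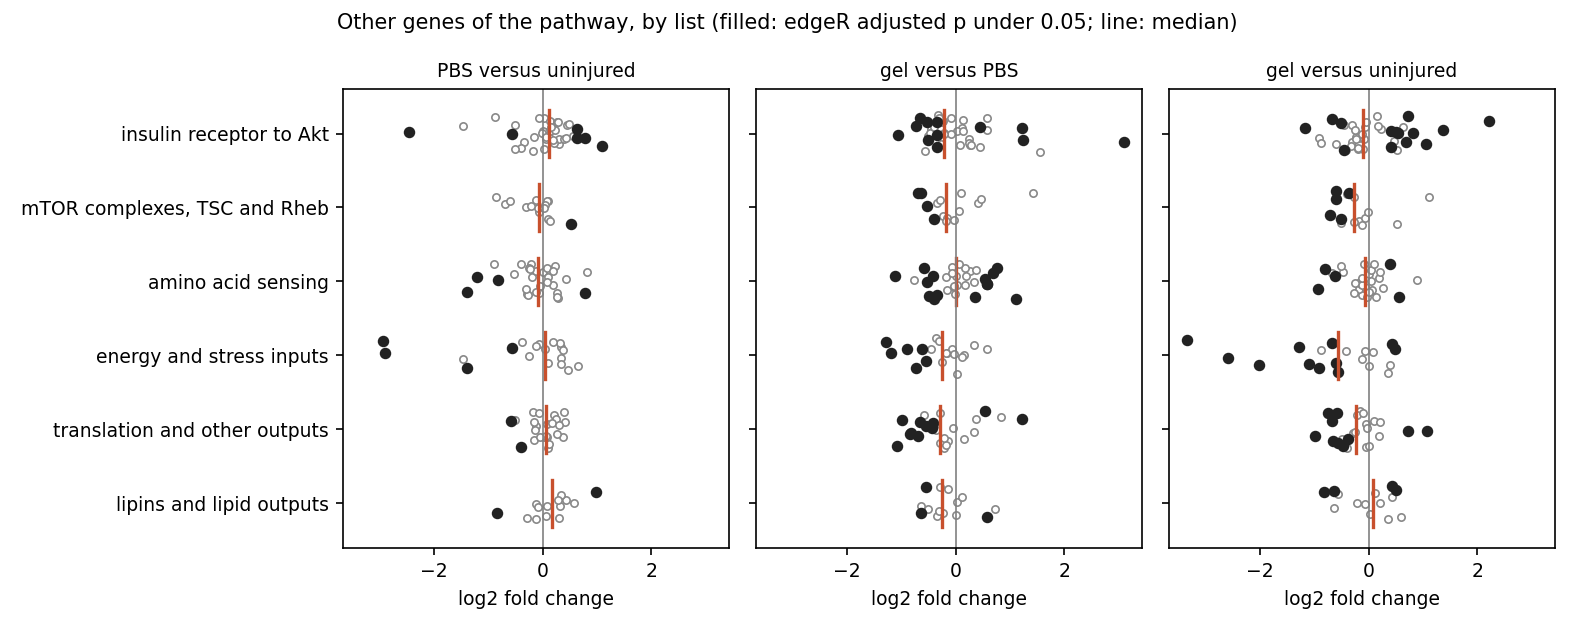
Log2 fold change (edgeR) of each tested gene of the 6 pathway lists in the 3 comparisons, without the 9 regulators, filled where the adjusted p is under 0.05, with the median of each list as a line. Between gel and PBS 36 of 139 genes are filled to the left of 0 and 13 to the right.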

How the data were processed

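RNA from 12 libraries of mouse tibialis anterior (4 uninjured, 4 PBS, 4 gel) was sequenced. For each library the authors deposited unnormalised read counts for 26264 gene symbols, with 0 rows that name no gene and 0 columns left over. The submitters' processing notes name STAR, the mouse build mm39 and edgeR, without versions. The annotation, the read counter and its handling of strand and of multiply mapped reads were not given in the sources used here. Therefore reads from overlapping or near-identical genes cannot be assigned with certainty.

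Counts were analysed with edgeR 4.0.16 (R 4.3.3): filterByExpr left 13499 genes, libraries were scaled by TMM, and a robust quasi-likelihood model with 1 coefficient per group and 9 residual degrees of freedom was fitted to all 12 libraries, with Benjamini-Hochberg adjustment over all genes tested and a threshold of 0.05. The SE comes from the fold change (log2) over the root of F, and a prior count of 2 was added for log2 CPM. "Rose" and "fell" are used for genes past the threshold. The p-values measure the spread between these libraries, and intervals from depth alone would cover counting error only. Replicates differed by more than sampling noise (lowest chi-square per gene 6.5, for genes with a pair total of 20 reads or more). The procedure was also run on simulated counts of independent libraries, with 1 spread per gene shared by all groups, and the outcome is not given here. Real gel pairs had a chi-square per gene of 26.5 to 118.7 and uninjured pairs 6.5 to 12.6. The simulation does not cover that difference or animals shared by gel and PBS.

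The regulators, the pathway lists, the marker lists and the tests were chosen with earlier results of these data known. The text names all 9 regulators, the 2 genes nearest in pattern to each (both or the first are given), 19 fixed pathway genes, and from each pathway list and comparison up to 3 genes past the threshold with the smallest p in each direction. Some of these are given.

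Gel and PBS libraries of the same number carry the same animal number in the deposited names, and the labels' protocol puts gel in the left and PBS in the right leg. Their deviations from the group means correlated at 0.143, -0.056, 0.311 and 0.080, and this pairing was fitted as a block in an alternative. The other alternatives were DESeq2 1.42.0, limma 3.58.1 voom, RLE scaling, no low-count filter, only the 2 groups compared, and leaving out each library. Promoter sequences (RefSeq, GRCm38.p6) and exon lengths (GENCODE M21) are of another build than the counts and were joined by symbol.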

Additional observations from a re-analysis of the deposited data

Results flagged for a closer look

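Sesn1 in PBS library 1 was at 15.8 CPM, while the other 3 PBS libraries lay between 11.3 and 11.8 CPM. Its gap to the nearest of them was 0.889 of the range of the group, above Dixon's 95% critical value for 4 samples. It was the only one of 27 groups tested (9 regulators in 3 groups) past that value, and chance passes about 1 in 20 groups.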

How the results depend on the processing

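Of 27 results for single regulators (9 in 3 comparisons), 10 passed the threshold, and 9 of these kept their direction and call in every alternative. The exception was Irs1 between gel and uninjured. Of the 17 that did not pass, 7 passed in at least 1 alternative, and the cause was not tested. With the pairing as a block, gel against PBS called 2971 genes, 3 regulators and 35 pathway genes, in place of 4022, 3 and 49, and the same 3 regulators passed (Eif4ebp2 -1.76, adjusted p = 0.0143, Lpin1 -1.05, 0.00460, Irs2 -0.73, 0.0134). Between PBS and uninjured (833 genes, 1 regulator, 19 pathway genes), DESeq2 called 1417 genes and 4 regulators, and the 2 groups alone gave 2339 genes, 5 regulators and 39 pathway genes. Between gel and PBS, the 2 groups alone gave 2559 genes and 29 pathway genes. Leaving out each library gave 378 to 1693 genes, 1 to 4 regulators and 12 to 29 pathway genes between PBS and uninjured. It gave 2456 to 5962, 3 to 4 and 28 to 70 between gel and PBS, and 2275 to 5341, 5 to 7 and 31 to 65 between gel and uninjured (3449, 6 and 48 with all libraries). In all 9 counts the highest value was reached without gel library 3. The gene count between PBS and uninjured also moved by over 1.5 times when PBS library 1 (443), 2 (410) or 3 (543) was left out, or uninjured library 2 (438), 3 (393) or 4 (378), and its regulators numbered 2 without gel library 4 or uninjured library 1. Without gel library 4 the counts against PBS were 2456 genes and 28 pathway genes and against uninjured 2275 and 31, without PBS library 3 the pathway count for gel against PBS was 32, and without uninjured library 3 that for PBS against uninjured was 12. The split of calls between gel and PBS was 2236 higher and 1786 lower with edgeR and 1861 and 1923 with limma voom, and between gel and uninjured 1951 and 1498 against 1360 and 1587. The signs of Sesn1 and Irs1 between gel and PBS and of Irs2 between PBS and uninjured, none of them called, turned in some alternatives. With 4 libraries per group and few reads, Sesn3 is the least precise of the regulators.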

Other observations

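Between gel and uninjured, the regulatory subunit genes Pik3r3 and Pik3r2 of phosphoinositide 3-kinase rose where Pik3r1 fell. They were chosen for description after their values were seen. Pik3r3, which encodes the regulatory subunit p55 gamma, was at 6.14, 4.199, 8.52 and 3.04 CPM in uninjured libraries 1 to 4, at 9.18, 6.20, 9.39 and 5.76 CPM in PBS and at 10.4, 11.4, 10.4 and 13.4 CPM in gel. Every gel library lay above every PBS and uninjured library. Pik3r3 rose between gel and uninjured (log2 fold change 1.06 ± 0.27, edgeR adjusted p = 0.00942, 0.00150 to 0.0379 over 17 alternatives), and was at 0.58 ± 0.26 between gel and PBS (adjusted p = 0.106). In CPM, Pik3r1 (10.6 ± 1.16) and Pik3r3 (11.4 ± 1.41) lay within their spread in gel-treated muscle (SD, n = 4). In CPM per kilobase, Pik3r1 was at 2.30 ± 0.493 and Pik3r3 at 1.04 ± 0.456 in uninjured muscle. They were at 1.40 ± 0.153 and 2.17 ± 0.269 in gel-treated muscle, so the order of the pair on this approximate scale differed between the groups. Pik3r2, the p85 beta gene, was the highest of the 3 on that scale in every group (7.98, 8.80 and 10.7 CPM per kilobase in uninjured, PBS and gel). It rose between gel and uninjured (0.42 ± 0.13, adjusted p = 0.0316), a call lost in 6 of 17 alternatives.

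Of the catalytic subunits, Pik3ca did not pass in edgeR with all 12 libraries in any comparison (-0.06 ± 0.11, -0.24 ± 0.11 and -0.30 ± 0.11). Between gel and uninjured it passed in 4 of 17 alternatives. Pik3cg, known from leukocytes, had 4 to 12 reads in PBS and 20 to 124 reads in gel libraries, and passed the low-count filter only with the gel libraries, where it is high. It was at 0.217 to 0.720 CPM in PBS and 1.22 to 4.51 CPM in gel libraries, and rose between them (3.11 ± 0.75, adjusted p = 0.00833). The summed macrophage markers of the same libraries were 29.2 to 60.8 and 100.4 to 1832 CPM, and their part in this difference was not tested.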
